A study of Homo sapiens with 6 samples.

Results

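The genes described are 4 Toll-like receptors (TLR2, TLR3, TLR4 and TLR6), the adaptors MYD88 and TICAM1, and the interleukin-1 receptor-associated kinases IRAK1, IRAK2, IRAK3 and IRAK4. They were taken by symbol from a table of read counts, and all 10 were among its 22681 genes. The counts come from 6 cultures of TPC-1-Len, a human papillary thyroid carcinoma line (TPC-1) made resistant to the kinase inhibitor lenvatinib. The control group (sh-NC, n = 3) had been transfected with a non-targeting short hairpin RNA, and the knockdown group (sh-KRT15, n = 3) with a hairpin against the keratin gene KRT15. Both groups were resistant cells held in 10 µM lenvatinib, so no drug-sensitive or drug-free culture stood beside them. The labels describe 1 hairpin against KRT15, and what that hairpin does apart from KRT15 cannot be told apart from the loss of KRT15.

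Toll-like receptors are membrane proteins that bind molecules released by microbes or damaged cells. TLR2, TLR4 and TLR6 sit at the cell surface, where TLR2 pairs with TLR6 to bind lipopeptides and TLR4 binds lipopolysaccharide, while TLR3 binds double-stranded RNA in endosomes. Once bound, the receptors recruit adaptors through a shared domain, the TIR domain. MYD88 serves most Toll-like receptors and the interleukin-1 receptors and assembles IRAK4, IRAK1 and IRAK2 into a complex that leads to NF-kB. TICAM1, also called TRIF, serves TLR3 and TLR4 and leads both to NF-kB and to the interferon regulator IRF3. IRAK3, also called IRAK-M, is known as a brake on this chain in macrophages. Epithelial and carcinoma cells carry a smaller set of these receptors than myeloid cells do.

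KRT15 itself checked the labels weakly. Its reads numbered 1040, 1137 and 1284 in the sh-NC libraries and 1024, 1044 and 1005 in the sh-KRT15 libraries, which were the more deeply sequenced. Scaled to library size the groups did not overlap and KRT15 fell by 0.38 ± 0.10 (SE) on the log2 scale (edgeR adjusted p = 0.00465). The libraries held 36286059 to 41343780 counted reads. Of the markers of thyroid cells, PAX8 stood at 375 CPM (read counts scaled to library size) in sh-NC and 410 CPM in sh-KRT15, and FOXE1 at 14.6 and 15.3 CPM. TSHR and NKX2-1 were each at 0.00941 CPM in sh-NC and 0 CPM in sh-KRT15, and TG at 1.58 and 0.808 CPM. Of the epithelial keratins, KRT18 rose from 116 to 215 CPM (log2 fold change 0.89 ± 0.07, edgeR adjusted p = 1.37e-08), while KRT7 (23.4 and 22.9 CPM) and KRT8 (12.9 and 14.9 CPM) did not pass. The summed level of the 6 epithelial markers was 147 to 161 CPM in sh-NC and 248 to 259 CPM in sh-KRT15, and the epithelial markers EPCAM, CDH1 and KRT19 were below 0.05 CPM in both groups.

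Among the 10 genes, 3 fell in sh-KRT15 (IRAK2, TLR4 and TICAM1), 2 rose (MYD88 and IRAK1), 3 did not pass the test (TLR3, TLR6 and IRAK4), and 2 had too few reads to be tested (TLR2 and IRAK3). A gene was called at a Benjamini-Hochberg adjusted p under 0.05 in edgeR's quasi-likelihood test over 14356 genes. That test called 45% of all tested genes, 22.1% as higher and 23% as lower, so 5 calls among 8 tested members do not by themselves set the group apart. The median log2 fold change of the 8 was −0.05, beside −0.0013 over all tested genes. The groups did not overlap in CPM for the same 5 genes, as they did not for 54% of all tested genes. Each of the 8 tested genes kept its side of the threshold under all 18 other settings that were run.

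**Figure D1:**
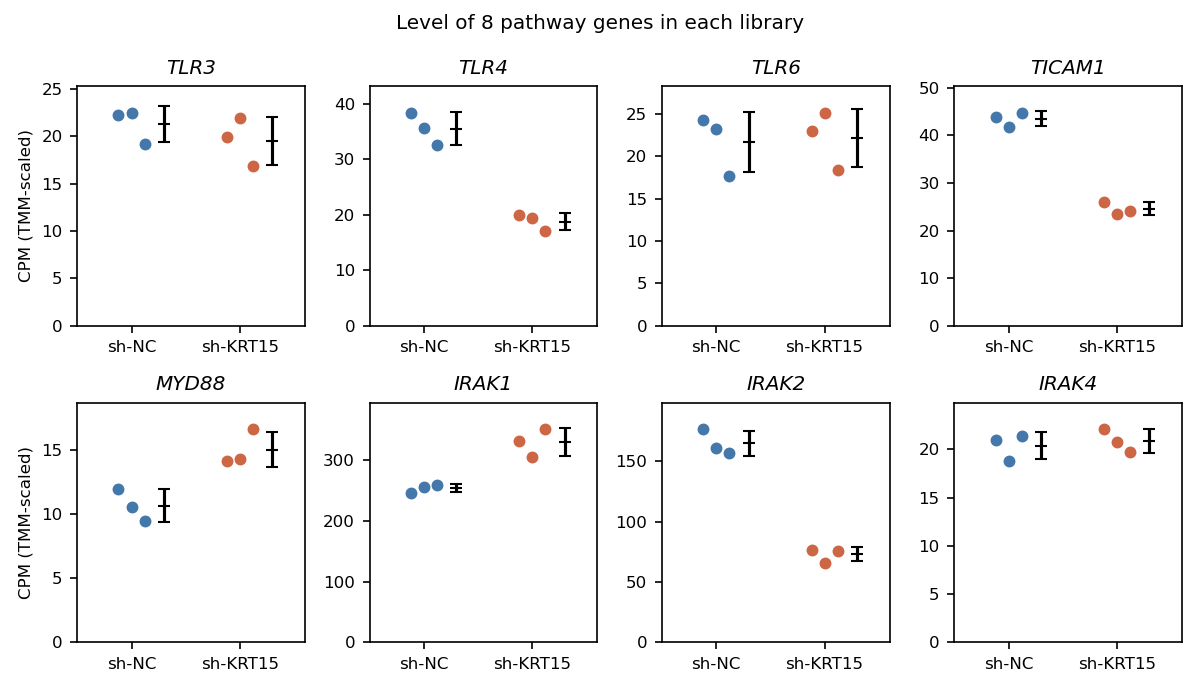
Level in CPM (vertical axes from 0, a scale for each gene) of the 8 tested genes in the 3 sh-NC libraries (blue) and the 3 sh-KRT15 libraries (orange), with mean and SD in black. TLR4, TICAM1 and IRAK2 lie lower in every sh-KRT15 library than in any sh-NC library, MYD88 and IRAK1 lie higher, and TLR3, TLR6 and IRAK4 overlap.

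The stretches before the starts of IRAK2, TICAM1 and IRAK1 are shown because IRAK2 changed most and because TICAM1 and IRAK1, which moved in opposite directions, each hold a kappa-B match there. They come from the RefSeq promoter table of build GRCh38.p14, which matched all 10 genes. It was searched over the 250 bases before the start it gives each gene (here the RefSeq start), 5′ to 3′ on the gene's strand. GENCODE release 29 starts some of these genes earlier, so that the last bases of the window lie in the first exon. These number 4 for TLR3, 7 for IRAK4, 54 for IRAK2, 78 for IRAK1, 183 for MYD88, 210 for TLR2 and 228 for TLR4. For IRAK3 they are all 250. For TLR6 the start in the promoter table is not the outer end of the RefSeq gene, which reaches 38868390 on chromosome 4, minus strand. The TLR6 window, 38856818 to 38857067, lies inside that gene. Only the bases before the first exon are printed. The printed stretch of IRAK2 lies at chr3:10164669-10164864 (plus strand), that of TICAM1 at chr19:4831713-4831962 (minus strand) and that of IRAK1 at chrX:154019981-154020152 (minus strand). Capitals mark matches, on either strand, to the kappa-B consensus bound by NF-kB.
IRAK2: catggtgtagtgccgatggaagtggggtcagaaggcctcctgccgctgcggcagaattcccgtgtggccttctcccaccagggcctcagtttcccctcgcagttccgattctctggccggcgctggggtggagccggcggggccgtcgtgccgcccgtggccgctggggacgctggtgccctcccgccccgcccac
TICAM1: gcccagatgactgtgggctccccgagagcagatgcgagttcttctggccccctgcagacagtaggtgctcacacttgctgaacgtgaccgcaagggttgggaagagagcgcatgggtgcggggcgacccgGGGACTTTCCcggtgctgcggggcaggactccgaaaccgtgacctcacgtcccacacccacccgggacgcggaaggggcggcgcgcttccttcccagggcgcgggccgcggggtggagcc
IRAK1: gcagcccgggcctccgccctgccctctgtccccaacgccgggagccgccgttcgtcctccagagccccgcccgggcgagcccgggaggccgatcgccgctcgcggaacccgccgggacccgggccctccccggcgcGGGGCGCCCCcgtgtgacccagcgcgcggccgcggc
TICAM1 held a kappa-B match 120 to 111 bases before its RefSeq start, and IRAK1 held one that reads the same on both strands 114 to 105 bases before its own. These were 2 of the 10 genes, and 9.96% of the 35116 promoters of this length hold such a match. Of the 10 genes, MYD88 alone held the core of the interferon-stimulated response element (GAAA, any 2 bases, GAAA), and 3.02% of all promoters hold one. Its letters, GAAAGCGAAA, lie at chr3:38138600-38138609 on the plus strand, 61 to 52 bases before the RefSeq start and inside the first exon of GENCODE release 29. No AP-1 site (TGANTCA) and no cAMP response element (TGACGTCA) was found in any of the 10, against 6.57% and 1.65% of all promoters. The GC box (GGGCGG) was present in 9 of the 10 genes, all but TLR6, and in 42.6% of all promoters. TICAM1 fell and IRAK1 rose, and both held a kappa-B match. IRAK2 and TLR4, which fell, held none within these windows. A match of letters is a description and shows no binding.

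TLR4, the lipopolysaccharide receptor, fell by 47.1%. Its level was 38.4, 35.7 and 32.5 CPM in the sh-NC libraries and 19.9, 19.4 and 17.0 CPM in the sh-KRT15 libraries. Every sh-KRT15 library lay well below every sh-NC library. The log2 fold change was −0.92 ± 0.10 (SE; 95% interval −1.13 to −0.70, edgeR adjusted p = 1.26e-06). The gene spans 117704175 to 117724730 of chromosome 9 on the plus strand in GENCODE release 29 (GRCh38), and 4.20% of its exon bases are shared with an annotated gene model that is not in the table. In a culture made of a single line, fewer cells that express a gene and less RNA per cell cannot be told apart by these counts.

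TLR3, the sensor of double-stranded RNA, did not pass the test. It was measured at 22.2, 22.5 and 19.2 CPM in sh-NC and at 19.9, 21.9 and 16.8 CPM in sh-KRT15, and the groups overlapped. Its log2 fold change was −0.12 ± 0.12 (SE), with a 95% interval of −0.37 to 0.12 (edgeR adjusted p = 0.408). In percent that interval runs from −22.5 to 8.62%. Corrected for GC content and length in each library, TLR3 had the opposite sign (0.08, adjusted p = 0.447) and still did not pass. TLR3 has the lowest GC content of the 10 genes, 37.6% of its longest transcript.

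TLR6, the partner of TLR2, did not pass either. Its level was 24.2, 23.2 and 17.7 CPM in sh-NC and 23.0, 25.1 and 18.4 CPM in sh-KRT15. Its change on the log2 scale was 0.03 ± 0.13 (SE; 95% interval −0.25 to 0.31, edgeR adjusted p = 0.87). In each group, the library with replicate number 3 had the lowest level of TLR3, TLR4 and TLR6 alike. TLR6 lies beside TLR1 on chromosome 4 and shares 57 exon bases with it in the annotation. Of the 50-base words in the longest TLR6 transcript, 4.22% also occur in TLR1 transcripts, so a small part of the reads could have been assigned to either gene. No such words are shared among the other receptors of the group, nor among the IRAK genes.

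TLR2 was close to absent. A single read was counted in sh-NC replicate 2, and the other 5 libraries had 0 reads. TLR6 transcripts were thus counted with almost none of its partner, and the test of TLR2 without a filter on low counts gave an adjusted p of 0.508. Among the other Toll-like receptors, TLR10, TLR7, TLR8 and TLR9 had 0 to 7 reads in any library. TLR5, the flagellin receptor, rose from 2.51 to 4.27 CPM (log2 fold change 0.77 ± 0.21, adjusted p = 0.00651). TLR1, the other partner of TLR2, fell from 5.11 to 3.35 CPM (−0.61 ± 0.21, adjusted p = 0.0258). Of the 50-base words in the longest TLR1 transcript, 8.5% also occur in TLR6 transcripts, so part of its reads could have been assigned to either gene. The call of TLR1 was lost without sh-NC replicate 1 (adjusted p = 0.158) or 2 (0.0594), without sh-KRT15 replicate 1 (0.0616) or 3 (0.101), with total-count scaling (0.0546) and after the GC and length correction (0.123).

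The adaptor of the interferon branch fell while the common adaptor rose. TICAM1 was at 43.8, 41.7 and 44.8 CPM in sh-NC and at 26.1, 23.4 and 24.2 CPM in sh-KRT15. All 3 sh-KRT15 values were far below the sh-NC values, which lay close together. Its log2 fold change was −0.82 ± 0.09 (SE; 95% interval −1.01 to −0.63, edgeR adjusted p = 9.8e-07). In percent TICAM1 fell by 43.5%. MYD88 was at 12.01, 10.6 and 9.48 CPM in sh-NC and at 14.2, 14.3 and 16.7 CPM in sh-KRT15. The groups were separate but nearer to each other than those of TICAM1. MYD88 rose by 0.50 ± 0.13 on the log2 scale (SE; 95% interval 0.23 to 0.76, edgeR adjusted p = 0.00377), which is 41.1%.

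Set against each other within a library, TICAM1 and MYD88 need no scaling between libraries. The sh-NC libraries held 3.65, 3.95 and 4.72 TICAM1 reads for each MYD88 read, and the sh-KRT15 libraries 1.83, 1.63 and 1.45. The ratio was therefore 2.51 times higher in sh-NC. In a two-sided exact permutation test of this ratio p was 0.1, and with 3 libraries a group no smaller p can be reached. The pair was chosen after the values were seen, as 1 of 6 pairs computed, each of which had the same p and an adjusted p of 0.1.

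IRAK2 changed most among the 8 tested genes. This kinase-like protein joins the MYD88 complex after IRAK4 and sustains its signal. Its level was 177, 161 and 157 CPM in the sh-NC libraries and 76.9, 66.2 and 75.8 CPM in the sh-KRT15 libraries. The lowest sh-NC library was thus more than 2 times the highest sh-KRT15 library. IRAK2 fell by 1.18 ± 0.08 on the log2 scale (SE; 95% interval −1.35 to −1.01, edgeR adjusted p = 3.23e-09). In percent it fell by 55.8%. Its absolute log2 fold change was at or above that of 92.0% of tested genes. IRAK2 spans 10164865 to 10243743 of chromosome 3 on the plus strand in GENCODE release 29, with no exon shared with another annotated gene.

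IRAK1, the kinase that IRAK4 phosphorylates, was the most abundant of the 10 and rose. Its level was 246, 256 and 259 CPM in sh-NC and 331, 305 and 350 CPM in sh-KRT15. The sh-NC libraries lay close together and all below the sh-KRT15 libraries, which were more spread. The log2 fold change was 0.37 ± 0.07 (SE; 95% interval 0.22 to 0.52, edgeR adjusted p = 0.000371), a rise of 29.6%. The gene lies on chromosome X, minus strand, from 154010500 to 154019980 in GENCODE release 29, and contains a microRNA gene, MIR718, within 61 of its exon bases. IRAK1 has the highest GC content of the 10 genes, 63.0% of its longest transcript, and across all genes the fold changes followed GC content (Spearman 0.255 over 13421 genes, a description across genes that share their libraries). After the GC and length correction IRAK1 was at 0.25 (adjusted p = 0.000218), and MYD88 at 0.40 (0.00792).

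**Figure D2:**
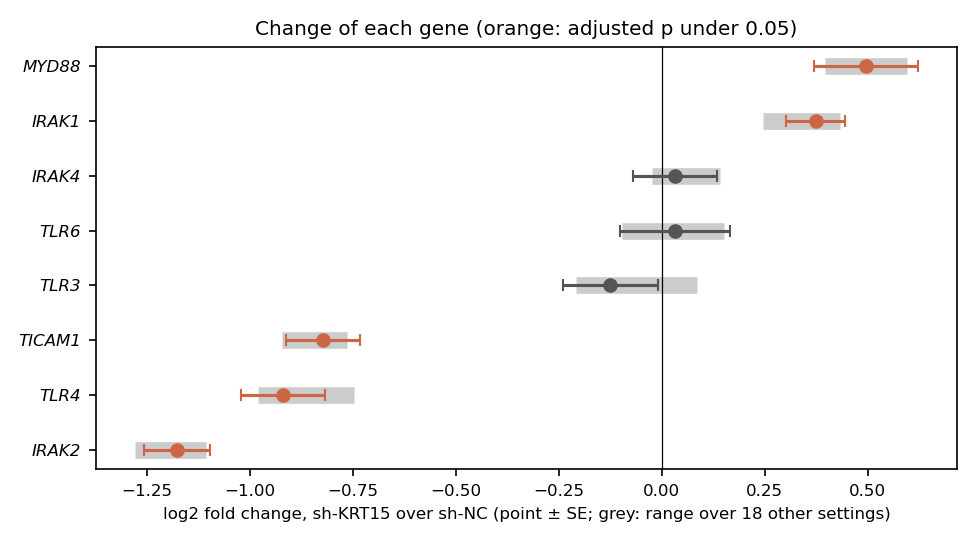
Log2 fold change of sh-KRT15 over sh-NC for the 8 tested genes, with the SE as a whisker and the range over the 18 other settings as a grey bar; orange points passed the adjusted p of 0.05. The grey bars of IRAK2, TLR4, TICAM1, IRAK1 and MYD88 stay on 1 side of 0, and those of TLR3, TLR6 and IRAK4 cross it.

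IRAK4, the first kinase of the complex, did not pass the test. It was at 21.0, 18.8 and 21.4 CPM in sh-NC and at 22.1, 20.8 and 19.7 CPM in sh-KRT15, with overlapping groups. Its change on the log2 scale was 0.03 ± 0.10 (SE; 95% interval −0.18 to 0.25, edgeR adjusted p = 0.822). In percent that interval runs from −11.9 to 18.8%. IRAK3 was nearly absent, with 9, 0 and 1 reads in the sh-NC libraries and 8, 5 and 1 in the sh-KRT15 libraries. Without a filter on low counts its adjusted p was 0.909.

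The make-up of the IRAK family differed between the groups. Scaled per length (RPKM, using the longest GENCODE release 29 transcript of each gene), IRAK2 made up 41.3, 38.4 and 37.3% of the 4 IRAK genes in sh-NC and 18.8, 17.8 and 17.8% in sh-KRT15. The share of IRAK1 went from 57.0% ± 2.09 (SD, n = 3) to 77.6% ± 0.799, while that of IRAK4 was 3.93% ± 0.257 and 4.24% ± 0.409. In raw reads, with no scaling, there were 0.719, 0.630 and 0.606 IRAK2 reads for each IRAK1 read in sh-NC and 0.233, 0.217 and 0.216 in sh-KRT15. The ratio was 2.93 times higher in sh-NC than in sh-KRT15. In the receptor group, TLR4 went from 27.7% ± 1.23 (SD, n = 3) of the 4 receptors to 17.3% ± 1.14, and TLR6 from 36.8% ± 1.99 to 44.4% ± 1.10. Shares of a family are tied to each other, and the level of TLR6 itself did not pass the test.

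**Figure D3:**
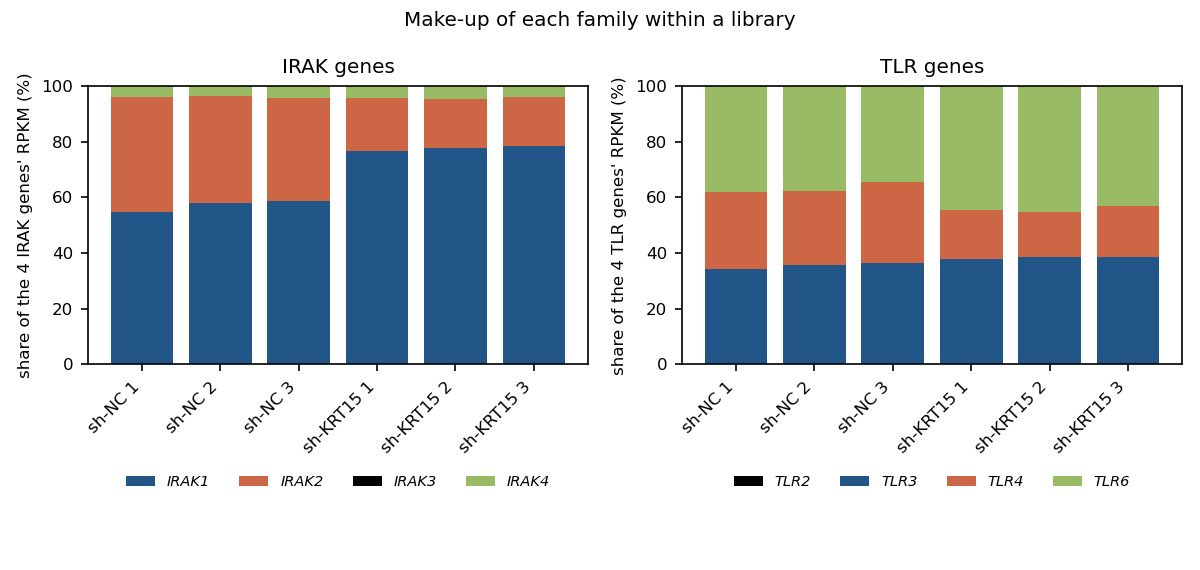
Share of each gene in the summed RPKM of the 4 IRAK genes (left) and of the 4 Toll-like receptors (right), in percent, for each library. IRAK2 takes 37.3 to 41.3% in sh-NC and 17.8 to 18.8% in sh-KRT15; IRAK3 and TLR2 are too rare to be seen.

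The order of levels was headed by the kinases in both groups. In sh-NC the means per length were 69.2 RPKM for IRAK1, 47.4 for IRAK2, 16.2 for TICAM1 and 4.76 for IRAK4, followed by TLR6 (3.69 ± 0.597, SD, n = 3), TLR3 (3.54 ± 0.307), MYD88 (3.22 ± 0.383) and TLR4 (2.76 ± 0.230). From TLR6 down to TLR4, neighbours in this order overlapped within their SD. In sh-KRT15 IRAK1 was at 89.6, IRAK2 at 21.0 and TICAM1 at 9.18 RPKM. They were followed by IRAK4 (4.87 ± 0.283), MYD88 (4.55 ± 0.416), TLR6 (3.77 ± 0.583), TLR3 (3.25 ± 0.423) and TLR4 (1.46 ± 0.120). IRAK4 and MYD88 overlapped within their SD there, as did MYD88 and TLR6, and TLR6 and TLR3, while TLR4 stood apart at the end. These levels rest on the length chosen, which for TLR4 is a transcript of 12853 bases, and which transcripts the reads came from is not known.

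Of 10 co-receptor and receptor-handling genes, 5 were tested, 1 rose and 1 fell. That is 40% called, near the 45% of all tested genes. UNC93B1, which carries TLR3 and other receptors to endosomes, rose by 0.52 ± 0.09 on the log2 scale (adjusted p = 0.000135). LY96, also called MD-2 and needed by TLR4 to bind lipopolysaccharide, fell by 0.63 ± 0.15 (adjusted p = 0.00205), from 8.97 to 5.79 CPM. The GC and length correction ended the call of LY96 (−0.18, adjusted p = 0.305). CD14, the other co-receptor of TLR4, had 2, 6 and 11 reads in sh-NC and 11, 3 and 6 in sh-KRT15. The chaperones HSP90B1 (0.12 ± 0.08), CNPY3 (−0.12 ± 0.08) and CNPY4 (−0.42 ± 0.25) did not pass, though HSP90B1 passed after the GC and length correction (0.27, adjusted p = 0.000207) and without sh-NC replicate 3 (0.17, adjusted p = 0.0385).

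Of the 3 tested genes among 4 other adaptors, 2 rose and none fell, beside 22.1% of all tested genes that rose and 23% that fell. PIK3AP1, which links the receptors to PI3-kinase, rose from 2.36 to 5.67 CPM (1.26 ± 0.24, adjusted p = 0.000396). TIRAP, the bridge between TLR4 and MYD88, rose from 4.99 to 7.09 CPM (0.51 ± 0.15, adjusted p = 0.0125), a call lost without sh-NC replicate 2 (adjusted p = 0.0548). TICAM2, the bridge between TLR4 and TICAM1, had 5 to 12 reads per library and was not tested, and SARM1 was at −0.84 ± 0.51 (adjusted p = 0.198). Among TLR4 and the proteins of its MYD88 arm, TIRAP and MYD88 thus rose, while TLR4 and LY96 fell.

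The interleukin-1 family receptors signal through MYD88 and the IRAK kinases as well. Of 5 tested, 4 fell, none rose and 1 did not pass, at a median log2 fold change of −1.12, beside 23% of all tested genes that fell. IL1R1 fell from 153 to 68.7 CPM (−1.15 ± 0.08, adjusted p = 5.1e-09) and its partner IL1RAP from 65.9 to 31.1 CPM (−1.08 ± 0.11, adjusted p = 8.39e-07). IL18R1 fell from 19.3 to 8.84 CPM (−1.12 ± 0.12). IL1RL1 had 30, 25 and 10 reads in sh-NC and 1, 2 and 7 in sh-KRT15 (adjusted p = 0.00454), so it passed the filter on low counts only through sh-NC. IL18RAP was at 0.35 ± 0.59 (adjusted p = 0.663).

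Below the adaptors, 20 ubiquitin ligases, kinases and transcription factors were tested, of which 6 rose, 6 fell and 8 did not pass, at a median of −0.03. That is 60% called, beside 45% of all tested genes. The kinases MAP3K8 (−0.86 ± 0.09, adjusted p = 4.04e-07) and TBK1 (−0.82 ± 0.10, adjusted p = 4.51e-06) fell. TBK1 is the kinase that activates IRF3 below TICAM1. Its relative IKBKE rose (0.47 ± 0.08, adjusted p = 0.000151), as did IRF7 (0.77 ± 0.13) and PELI3 (0.74 ± 0.15), a ligase that modifies IRAK proteins. The number that fell was 3 without sh-NC replicate 1 or 2, and with total-count scaling.

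Of 12 tested genes listed as inhibitors of the pathway, 7 fell, 1 rose and 4 did not pass, at a median of −0.43. LRCH4, among those that did not pass (−0.09 ± 0.13, adjusted p = 0.627), may not belong among inhibitors. Over all tested genes, 23% fell and 22.1% rose. TNIP3 fell from 25.1 to 3.39 CPM (−2.88 ± 0.12, adjusted p = 8.53e-12), and TNFAIP3, also called A20 and a ubiquitin-editing enzyme, from 188 to 95.7 CPM (−0.97 ± 0.08). CYLD (−0.97 ± 0.09), which removes ubiquitin chains, TNIP1 (−0.54 ± 0.07) and the RNA-degrading enzyme ZC3H12A (−0.46 ± 0.07) fell as well. RNF216 was the one that rose (0.26 ± 0.09, adjusted p = 0.0248), and its call was lost without sh-NC replicate 2 (adjusted p = 0.0779), without sh-KRT15 replicate 1 (0.0775) or 3 (0.141) and after the GC and length correction (0.182).

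All 13 tested outputs of the NF-kB branch fell, at a median of −2.64, beside 23% of all tested genes that fell. CXCL8 fell from 10828 to 1004 CPM, IL6 from 2542 to 407 CPM, IL1A from 143 to 4.94 CPM, IL1B from 33.2 to 0.674 CPM and CCL20 from 201 to 4.49 CPM. Of 9 tested outputs of the TICAM1 and IRF3 branch, 5 rose, 1 fell and 3 did not pass, at a median of 0.32. The share of all tested genes that rose was 22.1%. IFIT1 (0.60 ± 0.07, adjusted p = 1.78e-06), RSAD2 (0.56 ± 0.07) and IFIT2 (0.44 ± 0.08), which are interferon-induced antiviral genes, rose. IFNB1, the gene of interferon beta, had 5, 3 and 6 reads in sh-NC and 23, 17 and 36 in sh-KRT15 (adjusted p = 0.00761, but 0.0629 without sh-KRT15 replicate 3). It passed the filter on low counts only through its sh-KRT15 reads. The chemokine CCL5 was the one that fell, from 1961 to 477 CPM (−2.04 ± 0.08, adjusted p = 1.78e-12). CXCL10 (0.32 ± 0.18, adjusted p = 0.165), ISG20 (−0.17 ± 0.09, adjusted p = 0.12) and ISG15 (0.04 ± 0.08, adjusted p = 0.735) did not pass. IRAK2 and TICAM1 fell too, while MYD88 and IRAK1 rose, and a link between these 4 genes and the outputs was not tested. Both lists of outputs were chosen with earlier results of these data known. The difference between the 2 lists was not tested.

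**Figure D4:**
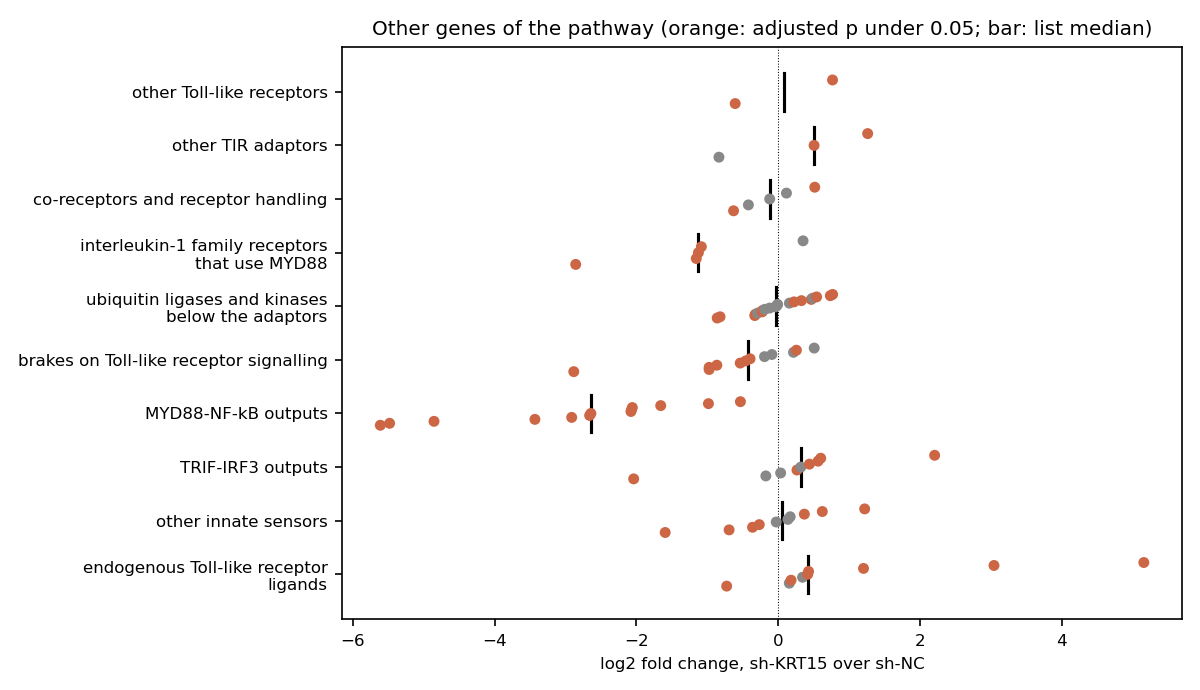
Log2 fold change of sh-KRT15 over sh-NC for each tested gene of the 10 lists around the pathway, with the list median as a black bar; orange points passed the adjusted p of 0.05. All 13 NF-kB outputs lie below 0, and the other lists hold genes on both sides of it.

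Of 10 tested other sensors of nucleic acids and microbes, 3 rose, 4 fell and 3 did not pass. That is 70% called, beside 45% of all tested genes. STING1, the adaptor of DNA sensing, rose from 43.6 to 102 CPM (1.22 ± 0.08, adjusted p = 1.44e-09), and MAVS, the adaptor of RNA sensing, by 0.37 ± 0.08. NLRP3, the inflammasome sensor, fell from 45.2 to 14.98 CPM (−1.59 ± 0.10, adjusted p = 8.71e-10), and DDX58, also called RIG-I, by 0.69 ± 0.08. CGAS (−0.36 ± 0.11, adjusted p = 0.0118) lost its call without sh-NC replicate 1 (adjusted p = 0.0713) or 2 (0.0661) or without sh-KRT15 replicate 1 (0.0652), and the number of these sensors that fell was then 2. Among the other RNA sensors of this list, DHX58 rose (0.62 ± 0.19, adjusted p = 0.0135). IFIH1 (−0.03 ± 0.09, adjusted p = 0.838) and EIF2AK2 (0.14 ± 0.08, adjusted p = 0.193) did not pass, and neither did TLR3. Differences between these genes were not tested.

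Of 9 tested proteins described as ligands that cells themselves make for Toll-like receptors, 6 rose, 1 fell and 2 did not pass. Beside them, 22.1% of all tested genes rose and 23% fell. S100A8, a subunit of calprotectin and a TLR4 ligand, rose from 3.27 to 27.0 CPM, and S100A9 from 0.288 to 10.4 CPM. S100A9 had 16, 1 and 14 reads in sh-NC and 395, 448 and 454 in sh-KRT15. Its sh-NC level was near the floor, and it passed the filter on low counts through sh-KRT15. VCAN, a proteoglycan, rose by 1.20 ± 0.10, and HMGB1, a chromatin protein that cells can release, by 0.42 ± 0.07. FN1, the gene of fibronectin, was the one that fell (−0.73 ± 0.11, adjusted p = 4.76e-05).

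Levels of markers of myeloid cells, which carry these receptors at high levels, were lower in sh-KRT15 in part, as was TLR4. Of 9 monocyte and macrophage markers, 7 were in the table and 2 (CD68 and CSF1R) reached 1 CPM on average. Their summed level was 91.3 to 95.01 CPM in sh-NC and 54.1 to 71.2 CPM in sh-KRT15, nearly all of it CD68 (87.9 and 59.6 CPM). CD68 (−0.56 ± 0.09, adjusted p = 0.000106), CSF1R (3.54 to 0.862 CPM, −2.04 ± 0.27, adjusted p = 1.16e-05) and LYZ (0.541 to 0.0494 CPM, adjusted p = 0.00266) fell. LYZ passed the filter on low counts only through its sh-NC reads. FCER1G (0.494 and 0.217 CPM, adjusted p = 0.136) and ITGAM (0.355 and 0.425 CPM, adjusted p = 0.738) did not pass. The defining marker PTPRC had 21, 5 and 17 reads in sh-NC and 0 in sh-KRT15, and CD163 at most 4 reads in any library. The summed levels of 6 lymphocyte markers were 0.0842 to 0.169 CPM in sh-NC and 0 to 0.0466 CPM in sh-KRT15, and those of 5 endothelial markers 0.814 to 1.86 and 1.12 to 2.10 CPM. For 6 fibroblast markers they were 17.7 to 23.3 CPM in sh-NC and 7.85 to 8.57 CPM in sh-KRT15, and COL1A2 and DCN were below 0.13 CPM. COL1A1 fell from 10.2 to 3.57 CPM (adjusted p = 1.34e-06) and LUM from 9.004 to 1.32 CPM (adjusted p = 6.76e-08), while PDGFRB rose from 1.47 to 3.06 CPM (adjusted p = 0.00337). The cultures were of a single line, and a link between the change of TLR4 and that of these markers was not tested.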

How the data were processed

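RNA was sequenced from 6 cultures, and per the labels' protocols a company made Illumina libraries from purified mRNA. The authors deposited read counts per gene without normalization. The build was GRCh38 per the submitters' processing notes; aligner, counter, annotation and strand setting: not given in the sources used here, so antisense reads cannot be told apart. Groups were read from titles. Libraries of 1 group differed beyond sampling noise (chi-square per degree of freedom 6.05 to 29); separate transfections are not stated, so p-values measure the spread between libraries.

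The edgeR 4.0.16 quasi-likelihood test (R 4.3.3; TMM; filterByExpr with minimum count 10 and total 15; group as the only term) gave p-values adjusted by Benjamini-Hochberg over 14356 genes. CPM use TMM-scaled library sizes, and RPKM also transcript length. GC content and length (GENCODE release 29) were found for 93.5% of tested genes. The fit was tested on simulated data. Alternatives were DESeq2 1.42.0, limma-voom (limma 3.58.1), other scalings, filters and gene sets, a replicate block, a GC and length correction and leaving out each library; dropping the 50 most abundant genes was chosen after seeing the data.

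Members, the 10 lists (105 genes, 103 matched) and markers were chosen with earlier results of these data known. Named were all members, the 5 smallest p-values of each list and any gene alone in its direction; other genes, read ratios and motifs were chosen after values were seen.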

Additional observations from a re-analysis of the deposited data

How the results depend on the processing

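Under all 18 alternatives, the counts of called genes among the members, over all tested genes and over the 10 lists summed stayed within 1.5 times of the reported ones. Single lists, whose counts are small, moved further in 33 of 360 comparisons. The ligases and kinases that fell went from 6 to 3 with total-count scaling and without sh-NC replicate 1 or 2, and the other sensors that fell from 4 to 2 without sh-NC replicate 1 or 2 or sh-KRT15 replicate 1. The inhibitors that rose were 2 with upper-quartile or total-count scaling, DESeq2, limma-voom and the 1 CPM filter, and 0 in 5 others. The co-receptor genes that fell were 2 without a filter and 0 after the GC and length correction, with or without the block. The remaining moves were by 1 gene. For the members, 3 fell and 2 rose under each of them, at log2 fold changes of −1.28 to −1.11 for IRAK2, −0.98 to −0.75 for TLR4, −0.92 to −0.76 for TICAM1, 0.25 to 0.43 for IRAK1 and 0.40 to 0.60 for MYD88. The highest adjusted p of MYD88 was 0.0248, without sh-KRT15 replicate 3. The 3 tested members that did not pass did so under no alternative, and their sign turned in these: TLR3 to 0.0848 after the GC and length correction and to 0.0837 with the replicate block beside that, TLR6 without sh-NC replicate 3 or sh-KRT15 replicate 2, and IRAK4 without sh-NC replicate 2 or sh-KRT15 replicate 1. Leaving out 1 library gave −0.0968 to 0.151 for TLR6 and −0.0240 to 0.0750 for IRAK4. The cause was not tested. With the replicate number as a block, 3428 genes fell and 3305 rose, against 3295 and 3169 without it, and IRAK2 was at −1.18. The numbers were not treated as pairing the samples. Deviations of same-numbered libraries correlated at 0.02, −0.0074 and 0.05, and the last, for replicate 3, was the highest between any sh-NC and sh-KRT15 library. For sh-NC replicate 1 the highest correlation, 0.03, was with sh-KRT15 replicate 2. Over 46 named genes of the lists, 800 of 822 comparisons with another setting gave the same direction and call, 19 lost the call, 3 gained it and none changed sign. TLR2 and IRAK3, with 1 and 24 reads in all, had too few reads for the main test.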
